A study of Mus musculus with 6 samples.

Results

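Motor neurons are the cells of the spinal cord and hindbrain that drive muscle, and they are among the earliest neurons of the mouse embryo. They arise from Olig2-expressing progenitors of the ventral neural tube, under hedgehog signalling from the notochord and floor plate, and as they leave the cell cycle they switch on a set of homeodomain factors. Isl1 and Lhx3 act together in that step, Mnx1 holds the motor neuron program against that of interneurons, and the cholinergic genes Chat and Slc18a3 follow as the cells mature. Several of these genes are also used elsewhere in the embryo: Mnx1 in the notochord, tail bud and pancreas bud, Isl1 in cardiac progenitors, pharyngeal tissue, hindlimb and sensory neurons, and Lhx3 in the pituitary.

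The genes described here are Mnx1, Isl1, Isl2, Lhx3, Lhx4, Phox2a, Chat and Slc18a3, with every probe set that the platform annotation gave to 1 of these symbols alone: 11 of 45101 probe sets, and 8 of 18194 genes. The list was selected on values of this same comparison, the RFC1-/- minus RFC1+/+ differences in which Mnx1 had moved against other neuron genes, so the values of the 8 genes are given as a description, and where they are counted past a threshold the count is set beside the share of all features and nothing is read from it. Whole embryos at embryonic day 9.5 were hybridized 1 per array to Affymetrix mouse arrays, 3 RFC1-/- and 3 RFC1+/+, each RFC1-/- embryo with an RFC1+/+ littermate from the same of 3 litters. RFC1 is the reduced folate carrier (mouse symbol Slc19a1); its allele was inactivated by gene targeting and moved from a C57BL/6J hybrid stock onto the inbred SWV strain. All dams were heterozygous and were injected under the skin with 25 mg/kg folic acid every day from E0.5, so both groups were supplemented and none was untreated. The labels describe the RFC1-/- embryos as having an open neural tube (craniorachischisis) and an allantois that had not fused with the chorion, and their littermates as normal in both, so genotype and defect cannot be told apart. The paper also describes RFC1-/- embryos at mid-gestation on this dose as delayed in development beside their littermates. Genotype and developmental stage therefore cannot be told apart either.

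All values are log2 expression from robust multiarray averaging (RMA), on which 1 unit is a doubling, and levels of different probe sets are not set against each other. Medians of the 6 arrays lay between 5.43 and 5.49. The table carries no detection calls. As a rough guide to background, the 95th percentile of 80 probe sets for olfactory, vomeronasal and taste receptors, which embryos of this age are not expected to use, was taken on each array. It lay between 5.04 and 5.38 and is called the receptor level. In the order of the litters it was 5.04, 5.12 and 5.14 on RFC1-/- arrays and 5.28, 5.38 and 5.15 on RFC1+/+ arrays. Counts above it, and lower bounds that use it, thus rest on a level that differed between the groups. The targeted gene gives no check of the labels: Slc19a1 was higher in RFC1-/- embryos by 0.93, 1.19 and 0.02 on its 3 probe sets, and no source used here says which part of the gene is missing. In RNA of a whole embryo, fewer cells of a type and less RNA per cell cannot be told apart.

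Mnx1 and Isl1 were the only members higher in the RFC1-/- embryo of all 3 litters. The bases before their start sites are shown because these genes were both higher and are regulated by homeodomain and basic helix-loop-helix factors. RefSeq (GRCm38.p6) had entries for all 8 members. Each line gives the 250 bases before the annotated start, 5′ to 3′ on the gene's own strand; capitals mark TAAT, the core that most homeodomain proteins bind, on either strand. The Mnx1 stretch lies at chr5:29478471-29478720 and the Isl1 stretch at chr13:116309689-116309938, both on the minus strand.
Mnx1: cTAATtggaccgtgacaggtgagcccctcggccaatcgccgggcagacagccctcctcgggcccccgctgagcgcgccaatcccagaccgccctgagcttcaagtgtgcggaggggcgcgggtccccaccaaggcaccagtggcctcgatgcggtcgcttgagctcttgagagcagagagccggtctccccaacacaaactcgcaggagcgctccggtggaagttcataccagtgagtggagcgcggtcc
Isl1: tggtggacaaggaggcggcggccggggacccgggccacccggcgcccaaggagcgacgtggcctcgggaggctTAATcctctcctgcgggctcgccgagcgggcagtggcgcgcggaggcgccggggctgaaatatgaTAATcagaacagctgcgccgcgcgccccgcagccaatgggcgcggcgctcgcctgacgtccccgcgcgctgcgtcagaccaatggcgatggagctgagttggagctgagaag
Mnx1 held 1 TAAT and Isl1 held 2. CANNTG, the E-box letters that proneural factors bind, was found at 2 positions before Mnx1 and at 1 before Isl1. Of 32851 promoters of this length, 54.9% held TAAT and 66.2% held CANNTG on either strand, so these matches are common and describe the letters alone. The stretches before Isl2, Lhx4 and Phox2a held 0 matches to either motif.

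Mnx1 (also called Hb9), the homeodomain factor that marks postmitotic motor neurons, was higher in RFC1-/- embryos. Its probe set (1460299_at) measured 5.23 in litter 1, 4.76 in litter 2 and 5.02 in litter 3 in RFC1+/+ embryos. In RFC1-/- embryos of the same litters it measured 6.18, 5.51 and 5.62. The lowest RFC1-/- embryo lay above the highest RFC1+/+ embryo, so the groups did not overlap. Within litters the difference was 0.95, 0.75 and 0.59, with a mean of 0.76 and a standard error of 0.11, which is 1.70-fold. The 3 RFC1+/+ embryos lay below the receptor level of their arrays and the 3 RFC1-/- embryos above it. With RFC1+/+ arrays set to the receptor level, RFC1-/- embryos were at least 1.41-fold higher.

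Isl1, a LIM homeodomain factor required for motor neurons to form, was measured by 2 probe sets, both above the receptor level on all 6 arrays. On 1450723_at the RFC1+/+ embryos read 9.338, 8.920 and 9.016, in the order of the litters, and the RFC1-/- embryos 9.501, 9.297 and 9.438. On 1422720_at it read 8.59, 8.13 and 8.54 against 8.86, 8.57 and 8.71. Each RFC1-/- embryo was above its own littermate on both, but the RFC1+/+ embryo of litter 1 was above an RFC1-/- embryo of another litter, so the groups overlapped. The mean difference was 0.32 with a standard error of 0.10 on the former and 0.30 with a standard error of 0.10 on the latter. The litters came in another order than for Mnx1: on 1450723_at litter 1 had the smallest difference, 0.16, and for Mnx1 the largest, and on 1422720_at the smallest was that of litter 3, 0.18.

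**Figure D1:**
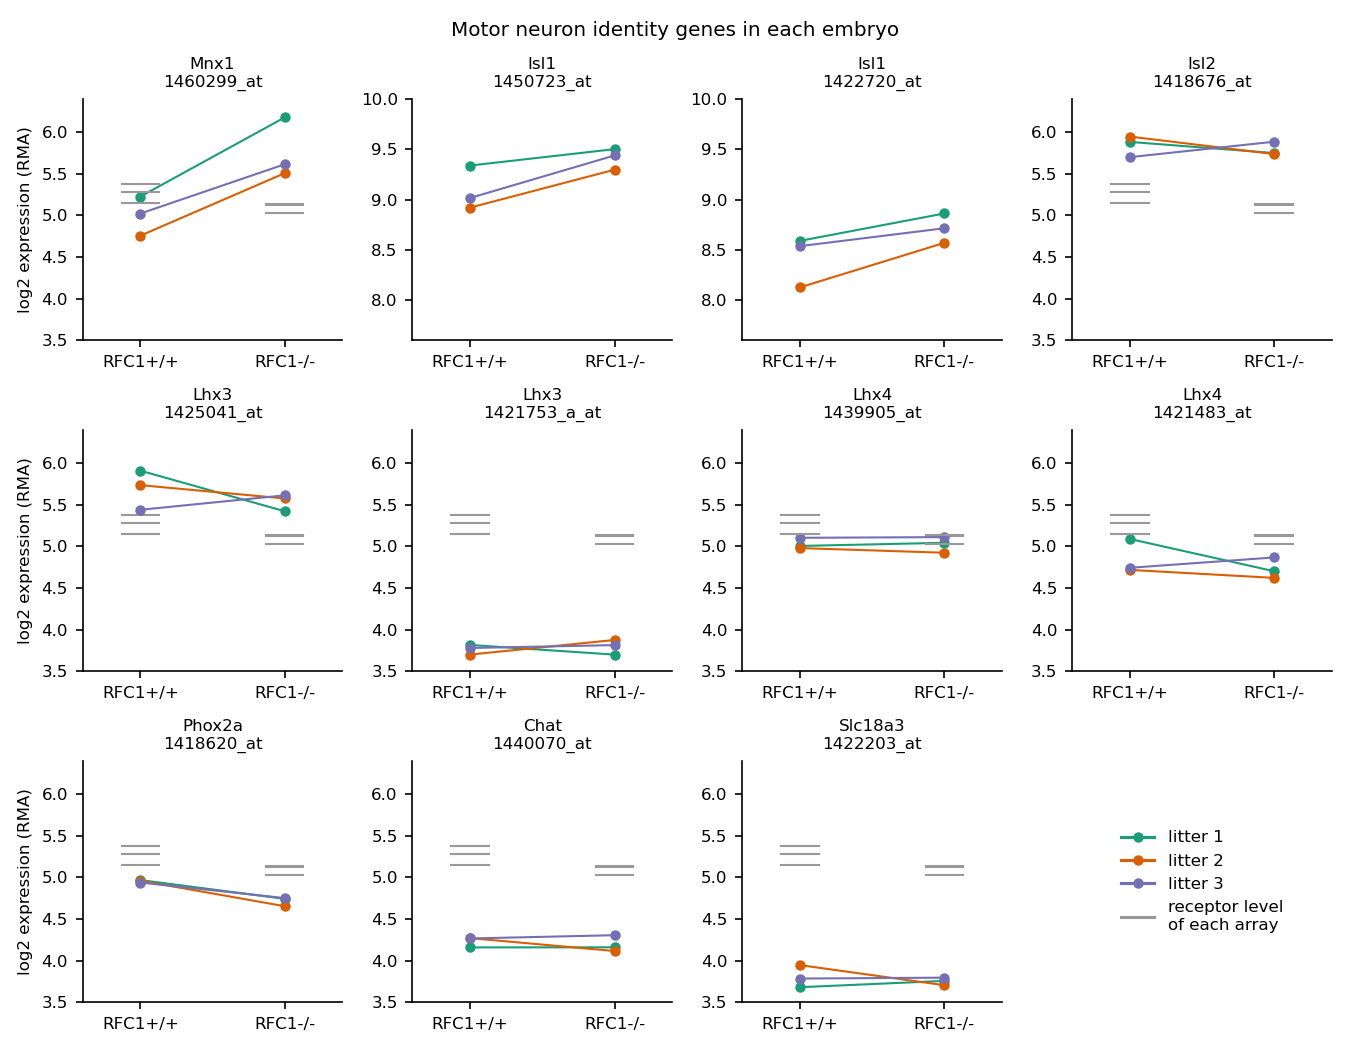
Log2 expression (RMA) of the 11 probe sets in each embryo, with littermates joined by a line and the receptor level of each array as grey bars; Isl1 has an axis of its own range, 7.6 to 10, where the other panels run from 3.5 to 6.4, and the receptor level lies below it. The 3 Mnx1 lines climb from below the bars to above them, both Isl1 panels climb at a level far above the bars, and Chat, Slc18a3, Phox2a and 1 probe set each of Lhx3 and Lhx4 stay below the bars in every embryo.

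Isl2, the relative of Isl1 that motor neurons switch on after it, did not share the direction. Its probe set (1418676_at) read 5.88, 5.95 and 5.70 in RFC1+/+ embryos and 5.75, 5.74 and 5.89 in RFC1-/- embryos, all above the receptor level. The difference was negative in litters 1 and 2 and positive in litter 3, with a mean of -0.05 and a standard error of 0.11.

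Lhx3 and Lhx4 are the LIM homeodomain factors that pair with Isl1 in newly formed motor neurons. Lhx3 was above the receptor level on all 6 arrays on 1425041_at, with 5.91, 5.74 and 5.44 in RFC1+/+ embryos and 5.42, 5.58 and 5.61 in RFC1-/- embryos. The litters differed in sign, by -0.49, -0.16 and 0.17, around a mean of -0.16 with a standard error of 0.14. The other Lhx3 probe set (1421753_a_at) ran from 3.70 to 3.88, below the receptor level in every embryo, and differed by 0.03 with a standard error of 0.10. For Lhx4, 1439905_at ran from 4.93 to 5.11, above the receptor level in 1 RFC1-/- embryo alone, and differed by -0.00 with a standard error of 0.10. That embryo, of litter 1, read 5.044 against a receptor level of 5.035. Both embryos of litter 3 read higher but lay below the level of their arrays. On 1421483_at Lhx4 ran from 4.62 to 5.09, below the receptor level throughout, and differed by -0.12 with a standard error of 0.12. Both genes thus gave no steady direction over the litters.

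Phox2a, the homeodomain factor of oculomotor, trochlear and noradrenergic neurons, was the member that was lower in every litter. Its probe set (1418620_at) read 4.97, 4.96 and 4.94 in RFC1+/+ embryos and 4.74, 4.66 and 4.75 in RFC1-/- embryos, and the groups did not overlap. The mean difference was -0.24 with a standard error of 0.10. All 6 values lay below the receptor level, so the array gives no level for Phox2a that can be told from background.

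Chat makes acetylcholine, and Slc18a3 loads it into synaptic vesicles; in GRCm38.p6 Slc18a3 lies within the span of Chat on chromosome 14. Chat (1440070_at) ran from 4.12 to 4.31 over the 6 embryos and differed by -0.04 with a standard error of 0.10. Slc18a3 (1422203_at) ran from 3.68 to 3.95 and differed by -0.05 with a standard error of 0.11. Both were below the receptor level in every embryo of both genotypes, so transmitter genes of motor neurons were not detectable above background at this age in either group, and a difference in them could not be measured.

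**Figure D2:**
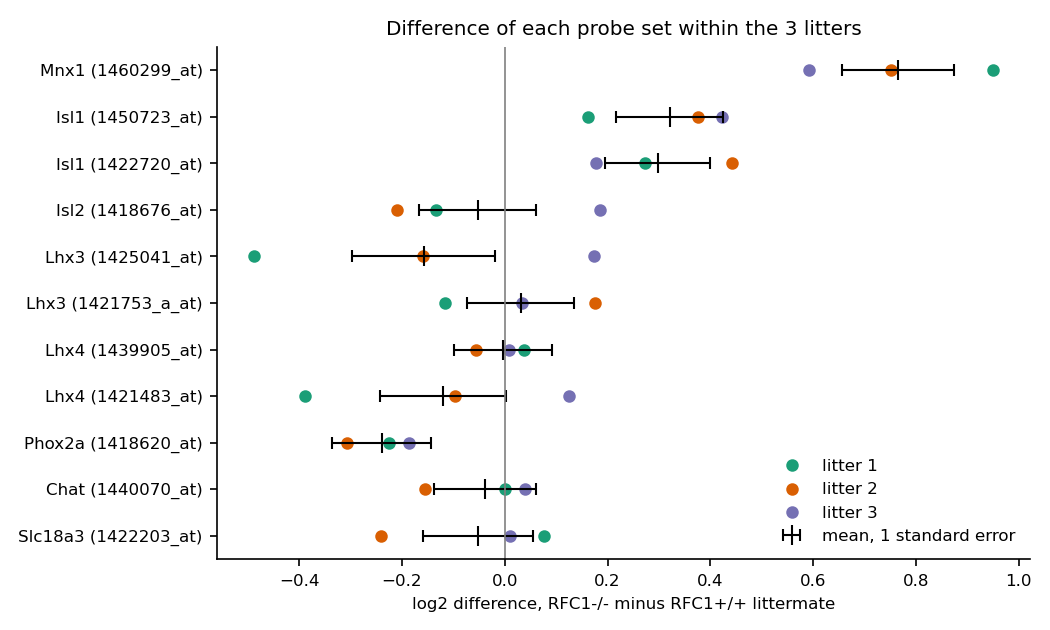
Log2 difference, RFC1-/- minus RFC1+/+ littermate, for each of the 11 probe sets: coloured points are the 3 litters, the black bar is their mean and its whiskers 1 standard error of the limma fit. Mnx1 lies at 0.59 to 0.95, both Isl1 probe sets lie above 0 in all litters, Phox2a lies below 0 in all litters, and the litters of the other probe sets fall on both sides of 0.

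Over the 11 probe sets, 4 were above the receptor level on all 6 arrays, 2 on some and 5 on none. In 3 probe sets all litters were higher in the RFC1-/- embryo, in 1 all were lower, and in 7 the litters had mixed signs. The share of all probe sets with 1 sign in all litters is not given here, so nothing is read from these counts. Outside Mnx1, Isl1 and Phox2a the largest mean difference was 0.16 in size. Groups that did not overlap were seen for 1 probe set that was higher, against 9.81% of all probe sets, and for 1 that was lower, against 11.5%. At a Benjamini-Hochberg adjusted p under 0.05 in the limma fit of all genes, 3.67% of all genes were higher and 1.65% lower. The 8 genes gave a count of 1 higher, which is Mnx1 and which the choice of Mnx1 on this difference fixes, and of 0 lower. The 1.5-fold variation filter of the study's methods, which keeps a probe set when an array strays that far from its median, left 1 of the 11, that of Mnx1, and 6.61% of all probe sets. Since the list was chosen with this comparison in view, nothing is read from these shares. The median difference of the 8 genes was -0.04, that of the 7 without Mnx1 -0.05 and that of all genes -0.01. Phox2a, Chat and Slc18a3 were below the receptor level on all arrays, where a fall could not be measured, so nothing is read from these medians. The count in the fit of genes was 0 without litter 1 and in a fit that ignored the litters. In the fit of probe sets Mnx1 was inside the threshold in 6 of 10 settings, and outside it in those 2, without litter 2 and after the variation filter.

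The genes that most resembled Mnx1 over the 6 arrays, among 12299 genes above the receptor level, were Slc19a2 (r = 0.987), Ushbp1 (r = 0.982), Nisch (r = 0.979), Slc7a3 (r = 0.977) and Pde4d (r = 0.975). Slc19a2, a thiamine transporter of the same family as RFC1, was higher by 0.50 with a standard error of 0.10. For Isl1 they were Septin2 (r = 0.998), Pxmp2 (r = 0.997), Casp6 (r = 0.979), Cpne1 (r = 0.976) and Pdgfrl (r = 0.974). With 6 arrays in 2 genotypes and 3 litters, such values are the upper end of many and describe likeness alone.

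Of 11 measured genes of motor neuron progenitors and their specification, 6 fell, 0 rose and 5 did not pass, with a median difference of -0.52. Among the 5, Nkx2-9 measured 0.16 and Nkx6-1, a ventral progenitor factor, -0.21. Neurog2, the proneural factor of motor neuron progenitors, fell by 1.73 (standard error 0.19, adjusted p = 0.00740 from limma). Hes5, a Notch target of dividing progenitors, fell by 1.44 (standard error 0.19, adjusted p = 0.0121 from limma), and with its probe sets averaged the difference was -1.21. Pax6, which sets ventral progenitor domains, fell by 1.30 (adjusted p = 0.0129 from limma), and with its probe sets averaged the difference was -0.55. Olig2, the factor of motor neuron progenitors, was below the receptor level in the 3 RFC1-/- embryos and above it in the 3 RFC1+/+ embryos. It was at least 1.59-fold lower (measured difference -1.12, adjusted p = 0.0113 from limma).

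Pan-neuronal genes, those that most neurons use, were lower as well: 11 of 19 fell and 0 rose, with a median of -0.99. Neurod1, a factor of newly formed neurons, was likewise below the receptor level in the 3 RFC1-/- embryos and was at least 1.89-fold lower (measured difference -2.07, adjusted p = 0.00452 from limma). The RNA-binding protein gene Elavl4, the neurofilament gene Nefm and the microtubule regulator gene Stmn3 also fell, with differences of -1.81, -1.76 and -1.74. With probe sets averaged, Neurod1, Elavl4 and Stmn3 differed by less, -1.85, -1.31 and -1.26, and Nefm still by -1.76. Elavl4 and Nefm were each above the receptor level in 2 of 3 RFC1-/- embryos. Nhlh2 (-0.90), another of the 11 that fell, was below the receptor level on all arrays of both genotypes. The mean level of the 19 genes ran from 6.36 to 6.98 in RFC1+/+ embryos and from 5.50 to 5.75 in RFC1-/- embryos, so the groups were apart.

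Other genes of the motor neuron program gave few calls. Of 11 other postmitotic motor neuron genes, 1 rose and 0 fell, with a median of -0.14. The riser was Tbx20, a T-box factor of hindbrain motor neurons that the developing heart also uses, which rose by 0.97 (standard error 0.11, adjusted p = 0.00832 from limma) and by 0.59 with its probe sets averaged. Of 7 cofactors that bind LIM homeodomain proteins or compete with them, 1 fell: Lmo1, by 0.63 (standard error 0.11, adjusted p = 0.0258 from limma), a call that was lost without litter 1 (adjusted p = 0.147) or without litter 2 (adjusted p = 0.0904). Of 9 other cholinergic genes 0 passed, and 6 were below the receptor level on all arrays, as Chat and Slc18a3 were; without the litter block, 1 of the 9 fell. Of 16 spinal interneuron genes 2 fell and 14 did not pass, around a median of -0.10. In this list 7 genes were below the receptor level on all arrays. The 2 that fell were Lhx2 (-1.05) and Pou4f1, which was below the receptor level in the 3 RFC1-/- embryos and at least 1.57-fold lower. The measured difference of Pou4f1 was -1.07, or -0.77 with its probe sets averaged. Whole embryos do not show in which tissue these 2 genes fell. Of 8 genes of cranial sensory and sympathetic neurons 1 fell, Neurog1, with a difference of -2.32, or -1.25 with its probe sets averaged, and with 1 of 3 RFC1-/- embryos above the receptor level.

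**Figure D3:**
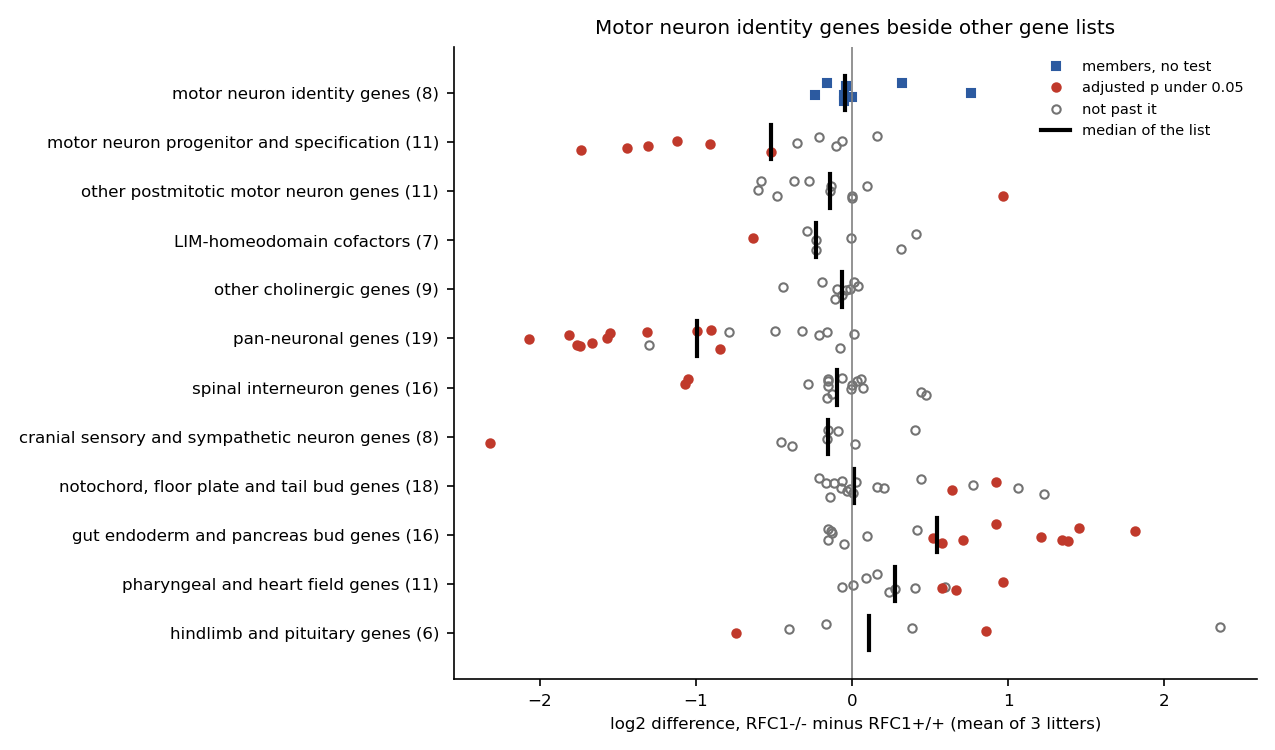
Mean log2 difference over 3 litters, RFC1-/- minus RFC1+/+, of each measured gene in the motor neuron identity list and 11 other lists, with the number of genes in brackets and the list's median as a black bar. Filled red circles passed an adjusted p of 0.05. Squares are the identity genes, drawn without a mark for the threshold since they were chosen on this comparison. The visceral endoderm list, at a median of 3.73, is not drawn. The medians of the progenitor and pan-neuronal lists lie at -0.52 and -0.99. That of the identity genes lies at -0.04, with Mnx1 at 0.76 as its right-hand point. Of these 8 genes 3 were below the receptor level on all arrays, where a fall could not be measured, so the medians cannot be compared.

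Places outside motor neurons that use Mnx1 or Isl1 were counted from lists of their own. Of 18 notochord, floor plate and tail bud genes, 2 rose and 0 fell around a median of 0.01: Foxa2, a factor of notochord, floor plate and endoderm, by 0.92 (standard error 0.14, adjusted p = 0.0163 from limma), and Shh, the signal from notochord and floor plate, by 0.64 (standard error 0.11, adjusted p = 0.0224 from limma). Neither passed without litter 1 (adjusted p = 0.0704 and 0.151), and Shh differed by 0.42 with its probe sets averaged. The litters differed in sign, with list medians of 0.18, 0.21 and -0.20. The count of risers in this list was 0 without litter 1, 2 without litter 2 and 6 without litter 3. Cdx2, Cdx4 and Evx1, which did not pass, were higher in litters 1 and 2 and lower in litter 3. Cyp26a1, which did not pass either (adjusted p = 0.0528 from limma), was higher in all 3 litters, by a mean of 0.78. Of 16 genes of gut endoderm and pancreas bud, 9 rose and 0 fell, with a median of 0.55; these included Hnf4a (1.81), Cldn6 (1.45), Foxa1 (1.38) and Sox17 (1.35), several of which visceral endoderm also uses. The count was 4 without litter 1 and 5 with the probe sets of a gene averaged, and Hnf4a missed the threshold under both (adjusted p = 0.0510 and 0.0784). Of the 16 genes 7 were below the receptor level on all arrays, among them the pancreas bud factors Pdx1 (-0.05) and Ptf1a (-0.15), which did not pass. Foxa3 (0.71), also below it on all arrays, was among the 9 that rose.

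Of 11 pharyngeal and heart field genes, where Isl1 is known to act, 3 rose and 0 fell around a median of 0.27, namely Tbx20, Nkx2-5 (0.66) and Gata4 (0.57); 1 of them passed without litter 1, and 1 without litter 2, and Gata4 also missed the threshold with its probe sets averaged (0.30, adjusted p = 0.131). Of 6 hindlimb and pituitary genes, Hesx1, a pituitary and forebrain factor, rose by 0.86 (above the receptor level in 1 of 3 RFC1+/+ embryos) and Sox3 fell by 0.74; neither call held throughout, since Hesx1 missed the threshold without litter 1 (adjusted p = 0.0875) and Sox3 did so there, without the litter block and with averaged probe sets. Of the hindlimb genes, Tbx4 did not pass (adjusted p = 0.0604 from limma) but was higher in all 3 litters, with the largest difference of this list. Its mean was 2.36, with a standard error of 0.54. Pitx1 did not pass either, with a difference of 0.39 and mixed signs over the litters. Whether any of the tissues in these lists carried the Mnx1 or Isl1 signal was not tested.

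**Figure D4:**
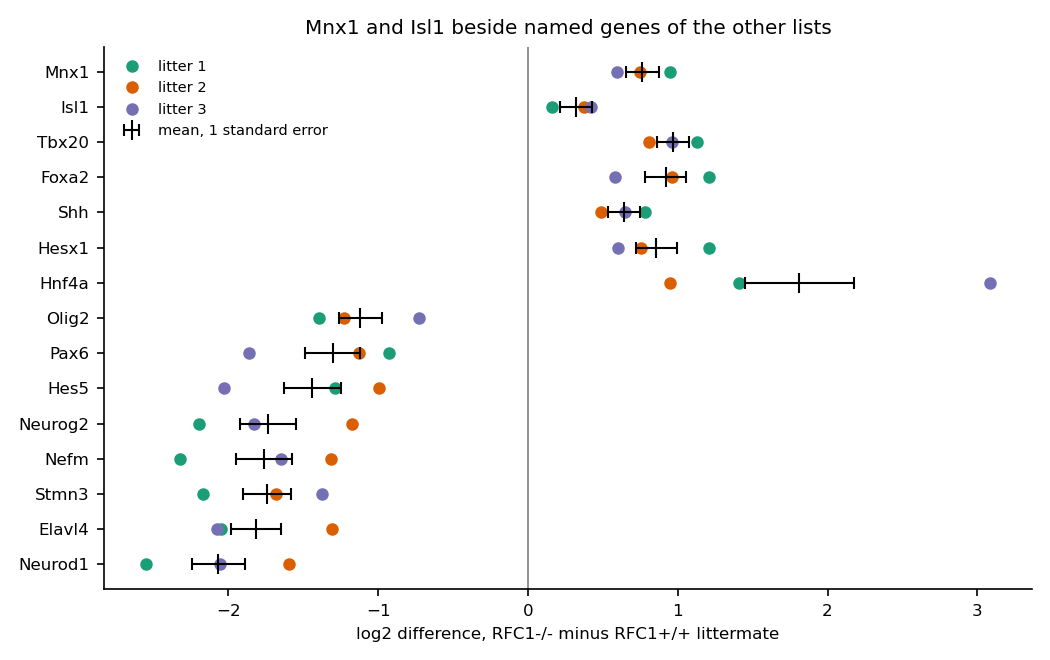
Log2 difference, RFC1-/- minus RFC1+/+ littermate, of Mnx1 and Isl1 (1450723_at) beside named genes of the other lists: points are the 3 litters, the bar their mean and the whiskers 1 standard error. Mnx1, Isl1, Tbx20, Foxa2, Shh, Hesx1 and Hnf4a lie above 0 in all 3 litters, and Olig2, Pax6, Hes5, Neurog2, Nefm, Stmn3, Elavl4 and Neurod1 below 0 in all 3; Olig2 and Neurod1 are drawn as measured, below the receptor level in RFC1-/- embryos.

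Visceral endoderm, the tissue of the yolk sac that can stay attached to an embryo when it is dissected, moved strongly with genotype. All 19 measured genes of its list rose, with a median of 3.73, and their mean level ran from 6.44 to 7.52 in RFC1+/+ embryos and from 9.29 to 11.1 in RFC1-/- embryos. The methods say that embryos were freed of decidua, chorion and amnion, and that the membranes were used to read the genotypes. The paper also found Cubn, Amn, Apoa1, Rbp4 and Ttr higher in RFC1-/- embryos by qRT-PCR. For Lrp2 and Dab2, which rose here by 0.82 and 1.68, its qRT-PCR found no statistically significant change. By antibody staining the paper reported more cubilin in the cranial mesenchyme and heart muscle of RFC1-/- embryos. It reported megalin, the protein of Lrp2, to be absent from their visceral yolk sac. Whether yolk sac tissue stayed on these embryos was not tested. By litter the median of the list was 2.95, 2.86 and 4.71. The part of this tissue in the Mnx1 and Isl1 values was not tested.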

How the data were processed

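The authors deposited log2 expression values made with RMA: background correction of perfect match probes, quantile normalization and median polish, with 1 value for each of 45101 probe sets on each of 6 arrays. No source used here names the software versions. The table still held the probe sets that the methods drop by a 1.5-fold variation filter, and 0 columns of values were left unused. Genotype and litter came from the labels. Arrays correlated at 0.984 to 0.996. They have no read depth, and their number limits the precision.

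The platform annotation gave 1 symbol to 34958 probe sets, several to 932 and none to 9211. RFC1-/- minus RFC1+/+ was fitted with limma 3.58.1 in R 4.3.3, with the litter as a block and 2 residual degrees of freedom before moderation, once over all probe sets and once over 18194 genes, each on the probe set with its highest mean; p-values were adjusted by Benjamini-Hochberg. The code was tested on simulated data. Differences and standard errors of the 8 identity genes come from the fit of probe sets, those of other genes from the fit of genes. The pairing rests on the labels and methods, which give each pair as littermates; the correlations of their deviations from the group means were 0.10, -0.05 and -0.15. Python 3.11.15 with pandas and matplotlib was used for sequences and plots.

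The members and the 12 other gene lists, from textbook knowledge, were chosen with earlier results of these data known. Of 161 genes in those lists 144 had a probe set of their own symbol, and the others were not analysed here. Named genes were all members, up to 4 genes of each other list past the threshold with the largest difference, the 5 genes most like Mnx1 and the 5 most like Isl1, and Slc19a1. Some list genes that did not pass are also given, picked with their values seen. The alternatives were no litter block, an intensity trend in the variance, dim probe sets left out, arrays centred on their median, a second quantile normalization, probe sets averaged by gene, the variation filter, and each litter left out.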

Additional observations from a re-analysis of the deposited data

How the results depend on the processing

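Mnx1 was higher under all 10 settings run, by 0.67 to 0.85; since it was chosen on this difference, that is a description. As a paired design, with the litter as replicate block, 1 of the 8 identity genes was past the threshold; with no replicate block the count was 0, and leaving out each litter in turn it was 0 to 1, the 0 being without litter 1. The count over all genes was 968, 355 to 1199 with a litter left out (355 without litter 1) and 1156 with no replicate block. Over all probe sets it was 1241, 491 after the variation filter, 129 to 1585 with a litter left out (129 without litter 1) and 1388 with no replicate block. The other lists held 54 calls, 41 to 68 with a litter left out and 50 with no replicate block. Isl1 stayed higher on both probe sets and Phox2a lower under every setting that kept them. With dim probe sets left out, Phox2a, Chat, Slc18a3, both Lhx4 probe sets and 1 of Lhx3 were not fitted. Of 27 named genes of other lists, 8 missed the threshold without litter 1, 3 without litter 2, 3 with probe sets averaged by gene, and 1 each with no replicate block and with a second quantile normalization. Hnf4a missed it in 3 of these (adjusted p = 0.0510, 0.0530 and 0.0784), with a difference of 0.89 at the averaged probe sets and 1.18 without litter 3. The causes were not tested. With the receptor level at the 90th percentile, chosen after seeing the data, 4 identity probe sets were still above it on all arrays, and Mnx1 was above it on 4 arrays. Lhx4 was then above it on 5 arrays on 1439905_at and on 1 array on 1421483_at, and Phox2a on 1 array. Chat, Slc18a3 and 1 probe set of Lhx3 were above it on 0 arrays. Signal near background limits Mnx1 in RFC1+/+ embryos, Phox2a, Chat, Slc18a3, Lhx4 and 1 probe set of Lhx3.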
